A study of Mus musculus with 10 samples.

Results

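The heart burns long-chain fatty acids, and the 10 genes described here cover the route by which these reach the muscle cell: Lpl, Gpihbp1, Angptl4, Vldlr, Cd36, Slc27a1, Acsl1, Fabp3, Fabp4 and Fabp5. They were chosen by name as genes of fatty acid uptake and binding. Each matched exactly 1 of the 24160 gene rows of the table, through the RefSeq transcript accessions that name the rows. Polyadenylated RNA from the left ventricular posterior wall was sequenced in 6 MC4R-/- and 4 WT libraries. MC4R-/- mice lack the melanocortin 4 receptor, which restrains food intake from the hypothalamus. Both groups were C57BL6/J mice aged 30 weeks, bred from heterozygous parents and kept at 24 °C, and the labels give neither sex nor diet nor feeding state. The labels name no Cre driver or transgene, so the loss is not described as limited to any cell type, and they do not state that every library came from its own animal. The p-values therefore measure the spread between these samples. The series title ties loss of the receptor to dilated cardiomyopathy, and the comparison asks which of these transcripts differ between the genotypes in ventricle.

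Triglyceride in circulating lipoproteins is split on the capillary wall by lipoprotein lipase (Lpl), which muscle cells make and secrete. GPIHBP1 carries the enzyme across the endothelial cell and holds it at the luminal face, ANGPTL4 inhibits it, and the VLDL receptor binds triglyceride-rich particles beside it. CD36 helps the released fatty acids to cross membranes, FATP1 (Slc27a1) and the acyl-CoA synthetase ACSL1 trap them as acyl-CoA, and fatty acid binding proteins carry them in the cytosol. FABP3 is the form of heart muscle, FABP4 that of adipocytes and capillary endothelium, and FABP5 is found in endothelium, macrophages and skin. Several of these genes, among them Fabp3, Angptl4, Cd36, Lpl and Acsl1, are known targets of the PPAR nuclear receptors.

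The libraries held 4145033 to 6425785 reads assigned to genes, fewest in WT replicate 3. The cardiac label fits the markers: all 12 cardiomyocyte markers were detected, led by Myh6 at 146365 ± 16387 normalized counts (SD, n = 6) in MC4R-/- and 162730 ± 17521 (SD, n = 4) in WT. Mc4r itself had 4 reads over the MC4R-/- libraries and 2 over the WT libraries, with at most 2 in any library, so it checks no label at this depth. Libraries stood apart at 2 points. The summed lymphocyte markers reached 981 normalized counts in WT replicate 2 against at most 52.9 in any other library. The summed atrial markers reached 3254 in MC4R-/- replicate 5 against at most 1388 in any other. Where leaving out either library changed the call of a member or a named pathway gene, the value without it is given.

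Fabp3 was higher in the MC4R-/- ventricles past the threshold, and the other 9 genes did not pass. Fabp3 had 23.9% more transcript in MC4R-/-. Angptl4 had the fold change farthest from 1 among the members, 1.99, from a mean of 240 ± 91.7 normalized counts (SD, n = 6) in MC4R-/- against 120 ± 45.8 (SD, n = 4) in WT, and the widest spread relative to its mean. Lpl had the lowest log2 fold change, -0.19. All 10 members passed the filter on low values and were tested, and 1 of 10 passed a threshold of 0.05 on limma's p after Benjamini-Hochberg adjustment over 14611 genes, where 0.459% of all tested genes passed (67 genes), 0.287% in the upward direction. At an unadjusted p below 0.05 there were 3 members, Fabp3, Lpl and Angptl4, against 9.6% of all tested genes. The groups of libraries did not overlap for 1 member, against 2.28% of all tested genes (333), or 1.34% with MC4R-/- above WT. The median log2 fold change was 0.04 over the members and -0.01 over all tested genes. A normalized count is here the read count of a gene divided by a size factor of its library. Fold changes are MC4R-/- over WT on the scale of log2(normalized count + 1), with standard errors.

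**Figure D1:**
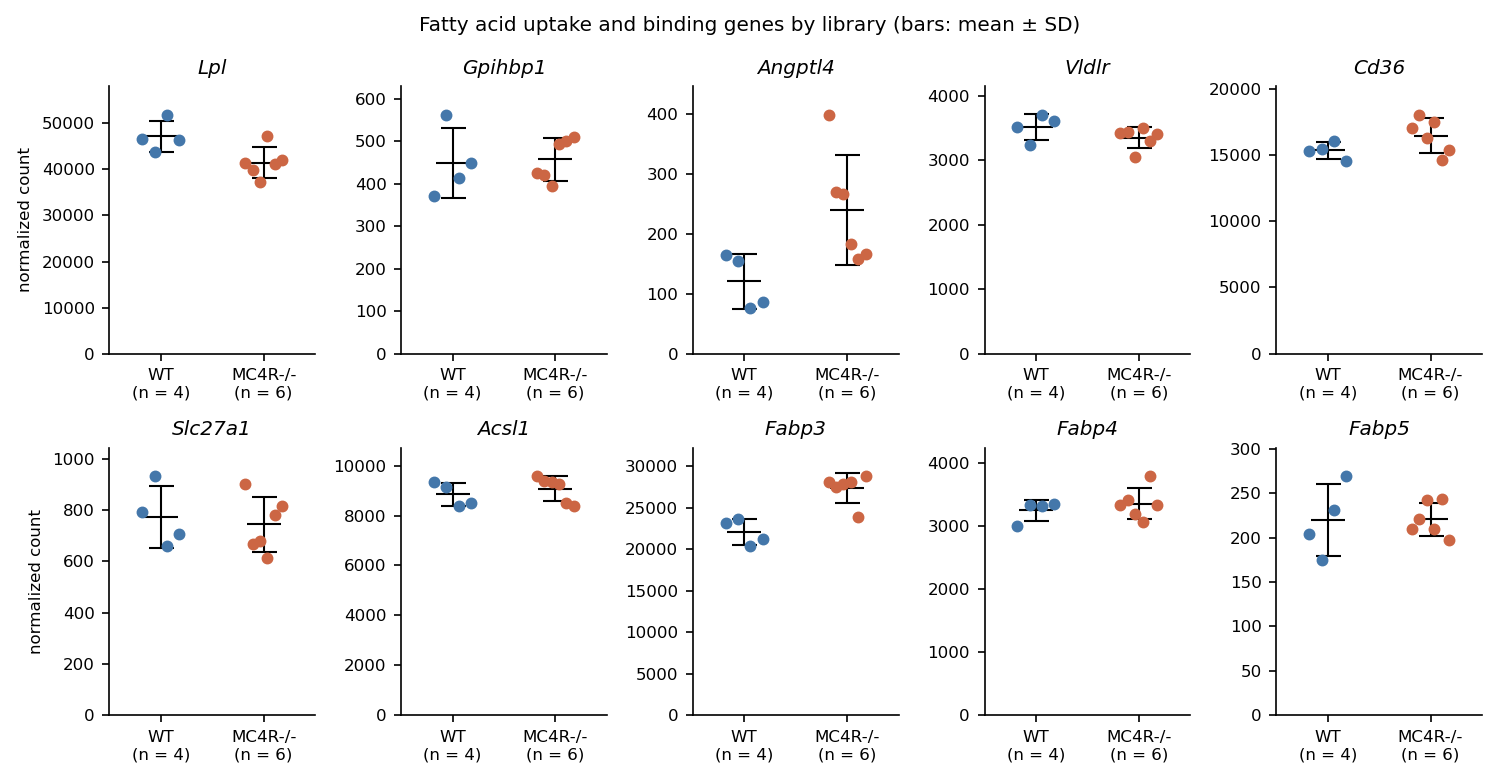
Normalized count of each of the 10 genes in every library (y axes start at 0), for WT (n = 4, blue) and MC4R-/- (n = 6, orange), with mean and SD as bars. Fabp3 is the only panel in which the 2 groups do not overlap, with WT up to 23601 and MC4R-/- from 23870, and Angptl4 shows the widest spread.

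Among the proteins that bind fatty acids in the cytosol, Fabp3 (chromosome 4, 130308738 to 130315463, GRCm38; NM_010174) had 23222, 23601, 20381 and 21225 normalized counts in WT replicates 1 to 4. In MC4R-/- its lowest value was 23870, its median 28023 and its highest 28826. Each MC4R-/- library thus lay above each WT library, by a narrow margin at the nearest pair. MC4R-/- replicate 5 was the low one of its group, while the other 5 lay between 27491 and 28826. The means were 27397 ± 1781 (SD, n = 6) and 22108 ± 1553 (SD, n = 4), and the log2 fold change was 0.31 ± 0.06 (SE; 95% interval 0.19 to 0.43; limma, adjusted p = 0.0112). The exact two-sided permutation test for Fabp3 gave p = 0.00952, uncorrected for the 10 genes. This is the smallest p it can give with 6 and 4 libraries. Every gene whose groups do not overlap reaches it (2.28% of all tested genes), so it adds nothing to the lack of overlap. Fabp3 lost its call without WT replicate 3 (limma, adjusted p = 0.053) or WT replicate 4 (adjusted p = 0.0632), and its adjusted p was 0.000963 without MC4R-/- replicate 5 and 0.0026 without WT replicate 2. It was called by edgeR (adjusted p = 0.0303) and by DESeq2 (adjusted p = 0.00048), which called 0.395% and 0.831% of all genes, and was not called without limma's trend and robust steps (adjusted p = 0.311). Over all alternatives its adjusted p ran from 0.000107 to 0.311. A RefSeq pseudogene, Fabp3-ps1, exists, and reads of a near-identical copy could not be told apart from those of Fabp3.

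Fabp4 and Fabp5, the other 2 members of the family in this set, had intervals around 0. Fabp4 (chromosome 3, 10204342 to 10208616; NM_024406) had 2997, 3336, 3310 and 3340 normalized counts in WT replicates 1 to 4 and 3061, 3328 and 3787 as lowest, median and highest value in MC4R-/-. In MC4R-/-, 2 libraries lay above the WT range and the rest within it, and the log2 fold change was 0.04 ± 0.06 (95% interval -0.09 to 0.18; limma, adjusted p = 0.882). Fabp5 (chromosome 3, 10012585 to 10016610) had 204, 175, 231 and 269 in WT replicates 1 to 4 and 198, 215 and 243 in MC4R-/-, all 6 of them within the WT range. Its log2 fold change was 0.02 ± 0.11 (95% interval -0.20 to 0.23; limma, adjusted p = 0.978), and its sign changed without WT replicate 1 or 2 or MC4R-/- replicate 3 or 5. RefSeq lists a pseudogene of Fabp5 as well. As fold changes the intervals ran from 0.94 to 1.13 for Fabp4 and from 0.87 to 1.18 for Fabp5, so they leave room in both directions. Of the 17 other genes listed for fatty acid, retinoid and acyl-CoA binding, Fabp1, Fabp2, Fabp6, Fabp9 and Fabp12 among them, 8 had enough signal to be tested and 0 passed by limma, edgeR or DESeq2, with 3 at an unadjusted p below 0.05, all higher in MC4R-/-. Among them were the acyl-CoA binding protein gene Dbi, at 780 ± 51.2 against 654 ± 74.4 (limma, adjusted p = 0.19), and the retinol binding protein gene Rbp7 (log2 fold change 0.31 ± 0.14). Acbd4, another acyl-CoA binding protein gene, had 77.0 ± 11.9 against 68.6 ± 10.1.

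The promoter of Fabp3 is shown because Fabp3 was the member called, and the window of Cd36 because it held the only match to the nuclear receptor half-site. RefSeq windows (GRCm38.p6) existed here for 5 of the 10 members, Fabp3, Cd36, Acsl1, Slc27a1 and Vldlr, in 9 windows, since some genes have several start sites. The Cd36 window lies inside the span of the gene (17781690 to 17888959), so it belongs to an internal start site and not to the outermost one. The 250 bases before the start are read 5′ to 3′ on the gene's strand: chr4:130308488-130308737 (plus) for Fabp3 and chr5:17835897-17836146 (minus) for Cd36, and capitals mark matches on either strand.
Fabp3: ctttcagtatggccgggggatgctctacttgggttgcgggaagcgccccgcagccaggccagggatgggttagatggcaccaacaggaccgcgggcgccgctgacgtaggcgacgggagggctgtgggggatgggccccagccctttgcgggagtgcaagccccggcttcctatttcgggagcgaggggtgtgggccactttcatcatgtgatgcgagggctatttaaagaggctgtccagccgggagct
Cd36: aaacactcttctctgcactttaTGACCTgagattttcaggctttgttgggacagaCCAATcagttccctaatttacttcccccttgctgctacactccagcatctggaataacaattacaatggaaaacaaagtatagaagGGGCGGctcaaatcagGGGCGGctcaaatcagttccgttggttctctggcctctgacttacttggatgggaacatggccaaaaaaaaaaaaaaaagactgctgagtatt
In all 9 motifs were searched, first in windows that ran 50 bases past the start, and capitals mark 5 of them. AGGTCA occurred in 14.02% of all 32851 windows and in 1 of the 9 member windows, that of Cd36. A pair of such half-sites 1 base apart, the arrangement PPAR and RXR bind, overlaps it and occurred in 0.0335% of all windows and in 0 of the 9, and a looser spelling of the pair in 0.338% and 0 of the 9. AGGTCA preceded by CAA occurred in 0.426% and 0 of the 9. CCAAT occurred in 33.8% and GGGCGG in 32.7% of all windows, and each in 5 of the 9. TATAAA occurred in 12.4% and in 0 of the 9, the MEF2 motif in 3.20% and 0, and CACGTG in 6.02% and 1, in Slc27a1. The Fabp3 window held none of the 9 and so has no capitals.

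Lpl (chromosome 8, 68880555 to 68906932; NM_008509) was the 8th most abundant of all rows by normalized count and held 0.666 to 0.905% of each library. It had 46628, 43897, 51916 and 46319 normalized counts in WT replicates 1 to 4. In MC4R-/- the lowest value was 37196, the median 41266 and the highest 47236. In MC4R-/-, 5 libraries lay below each WT library, and replicate 4 lay within the WT range. The log2 fold change was -0.19 ± 0.06 (95% interval -0.31 to -0.06; limma, adjusted p = 0.22), with p = 0.0381 by the exact permutation test, uncorrected for the 10 genes. It ran from -0.22 to -0.14 when 1 library was left out (limma, lowest adjusted p = 0.0857) and was -0.19 by edgeR and by DESeq2. Quantile normalization gave the value nearest 0, -0.05 (limma, adjusted p = 0.772).

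Angptl4 (chromosome 17, 33774900 to 33781575; NM_020581), the inhibitor of the lipase, had 165, 154, 76.1 and 85.4 normalized counts in WT replicates 1 to 4. The MC4R-/- libraries had 398, 269, 267, 183, 157 and 167 in replicates 1 to 6. Of these, 5 lay above each WT library, and replicate 5 lay between WT replicates 2 and 1. The highest library exceeded the lowest 5.23-fold, against at most 1.54-fold in any other member. The log2 fold change was 0.99 ± 0.34 (95% interval 0.22 to 1.77), not past the threshold (limma, adjusted p = 0.369), with p = 0.019 by the exact permutation test, uncorrected. Both groups varied by 38% of their mean (38.2% in MC4R-/-, 38.1% in WT), and Angptl4 rested on 55 to 407 reads per library. The log2 fold change was 0.81 without WT replicate 3, the lowest library, and 0.83 without MC4R-/- replicate 1, the highest.

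Gpihbp1 (chromosome 15, 75596630 to 75598213; NM_026730), the anchor of the lipase on capillaries, had 370, 562, 413 and 449 normalized counts in WT replicates 1 to 4 and a lowest, median and highest value of 394, 459 and 509 in MC4R-/-. All MC4R-/- values lay within the WT range, and the log2 fold change was 0.04 ± 0.10 (95% interval -0.17 to 0.25; limma, adjusted p = 0.948). Vldlr (chromosome 19, 27216480 to 27254231) had 3519, 3237, 3712 and 3612 in WT replicates 1 to 4 and 3051, 3415 and 3510 in MC4R-/-. The log2 fold change was -0.07 ± 0.06 (95% interval -0.19 to 0.06; limma, adjusted p = 0.785), with 1 MC4R-/- library below the WT range. Genes listed as folding, cleaving, tethering or regulating the lipase did not pass either. Of 19 listed, 14 were tested and 0 passed by limma, edgeR or DESeq2, with 1 at an unadjusted p below 0.05 and a median log2 fold change of 0.02. That one was Nfe2l1, a transcription factor of proteasome genes, at 5275 ± 240 against 4759 ± 158. Lmf1, a chaperone that matures lipases, had 180 ± 20.8 against 158 ± 27.8, and the protease gene Furin 742 ± 60.3 against 690 ± 73.8. Sdc4, a heparan sulfate proteoglycan, had 79.8 ± 10.1 against 87.8 ± 18.5. Of 15 lipoprotein receptor genes 14 were tested and 0 passed by limma, edgeR or DESeq2, with 0 at an unadjusted p below 0.05 and a median of 0.10. Lrp1 had 1200 ± 147 against 1084 ± 137 normalized counts, Lrp5 517 ± 40.2 against 468 ± 49.0, Sorl1 77.3 ± 18.5 against 89.1 ± 5.59 and the scavenger receptor gene Msr1 27.9 ± 7.70 against 21.8 ± 4.49.

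**Figure D2:**
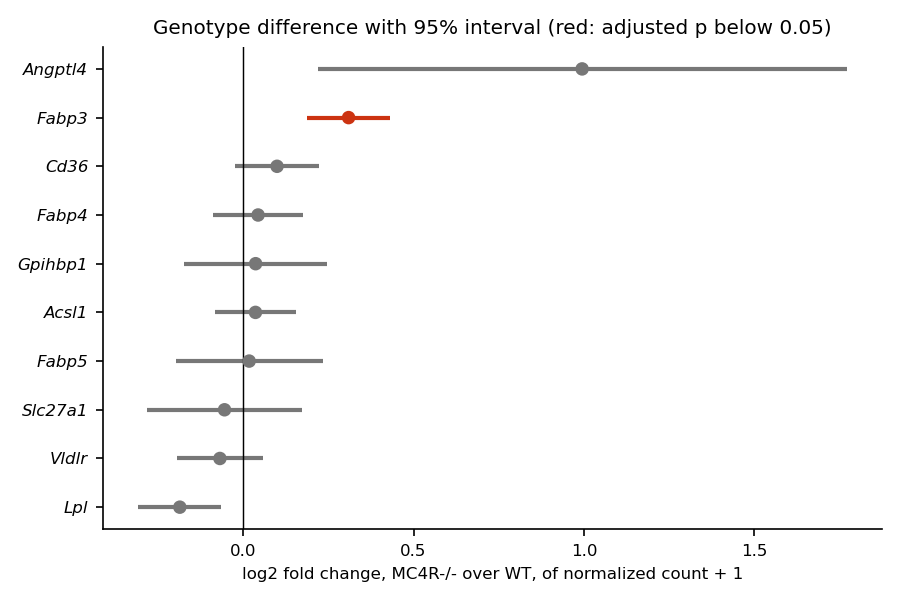
Log2 fold change of each member, MC4R-/- over WT, as a point with its 95% interval from limma, in order of size. Fabp3 (0.31, red) is the member with an adjusted p below 0.05. The intervals of Angptl4 and Lpl also miss 0, though neither passed after adjustment over all genes.

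At the plasma membrane, Cd36 (chromosome 5, 17781690 to 17888959) had 15366, 15485, 16086 and 14574 normalized counts in WT replicates 1 to 4. Its lowest, median and highest values in MC4R-/- were 14652, 16697 and 18090. Of the MC4R-/- libraries, 4 lay above the WT range and the 2 others, replicates 5 and 6, within it. The log2 fold change was 0.10 ± 0.06 (95% interval -0.02 to 0.22; limma, adjusted p = 0.643). Slc27a1 (chromosome 8, 71568728 to 71587307; NM_011977) had 793, 933, 662 and 707 in WT replicates 1 to 4 and 614, 732 and 904 in MC4R-/-, with wide overlap. Its log2 fold change was -0.05 ± 0.11 (95% interval -0.28 to 0.17; limma, adjusted p = 0.919), and its sign changed without WT replicate 2. Acsl1 (chromosome 8, 46471037 to 46536051) had the narrowest range of the 10 genes, with its highest library 1.14-fold above its lowest. Its values were 9367, 9133, 8387 and 8523 in WT replicates 1 to 4 and 8399, 9304 and 9585 in MC4R-/-, a log2 fold change of 0.04 ± 0.06 (95% interval -0.08 to 0.16; limma, adjusted p = 0.894).

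Of 17 other fatty acid transporters and acyl-CoA synthetases, 13 were tested and 0 passed by limma, edgeR or DESeq2, with 3 at an unadjusted p below 0.05 and a median of -0.02. The mitochondrial synthetase gene Acsf2 had 469 ± 27.4 normalized counts in MC4R-/- against 375 ± 77.0 in WT (limma, adjusted p = 0.185, or 0.0224 without WT replicate 2). Acss1, the mitochondrial acetyl-CoA synthetase, had 3009 ± 186 against 3390 ± 87.5 (limma, adjusted p = 0.286), with no overlap between the groups. The row of Acsl3 also carries accessions of Utp14b, so its values (42.3 ± 4.65 against 53.2 ± 6.37) belong to either gene. Its groups did not overlap either. Acsl4, a synthetase that prefers arachidonic acid, had 87.5 ± 12.9 against 104 ± 11.0. The list for caveolae and the vesicles that carry CD36 to the surface held 22 genes, all tested, among them the acetylcholinesterase gene Ache. Of these 0 passed by limma, edgeR or DESeq2, with 2 at an unadjusted p below 0.05 and a median of -0.01. They were Prkab2, a regulatory subunit of AMP-activated protein kinase, at 587 ± 39.8 against 509 ± 31.4, and the muscle caveolin gene Cav3, at 344 ± 26.1 against 302 ± 36.8. Tbc1d4 (728 ± 80.3 against 808 ± 32.7), a Rab GTPase-activating protein, and the muscle cavin gene Cavin4 (1168 ± 156 against 1035 ± 69.8) followed by p.

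Levels of different genes can be compared only per transcript length, here as normalized counts per kb of annotated transcript over all 10 libraries. Fabp3 was the most abundant member at 30718 ± 3847 per kb (SD, n = 10) and ranked 7 among all rows with a length. Lpl followed at 10641 ± 1043 per kb, then Cd36 at 5419 ± 403, Fabp4 at 3692 ± 240 and Acsl1 at 2454 ± 130 per kb. Down to Acsl1 each gene lay above the next in all 10 libraries with no overlap of their ranges. The mean of Acsl1 was 4.24-fold that of the next gene. Vldlr had 579 ± 32.1 and Gpihbp1 550 ± 73.2 per kb, and their ranges overlapped, with Vldlr the higher in 6 of 10 libraries. Slc27a1 (271 ± 38.4 per kb) and Fabp5 (223 ± 27.4 per kb) overlapped as well. Angptl4 was lowest at 58.1 ± 29.0 per kb, below each of the other 9 genes in each library.

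**Figure D3:**
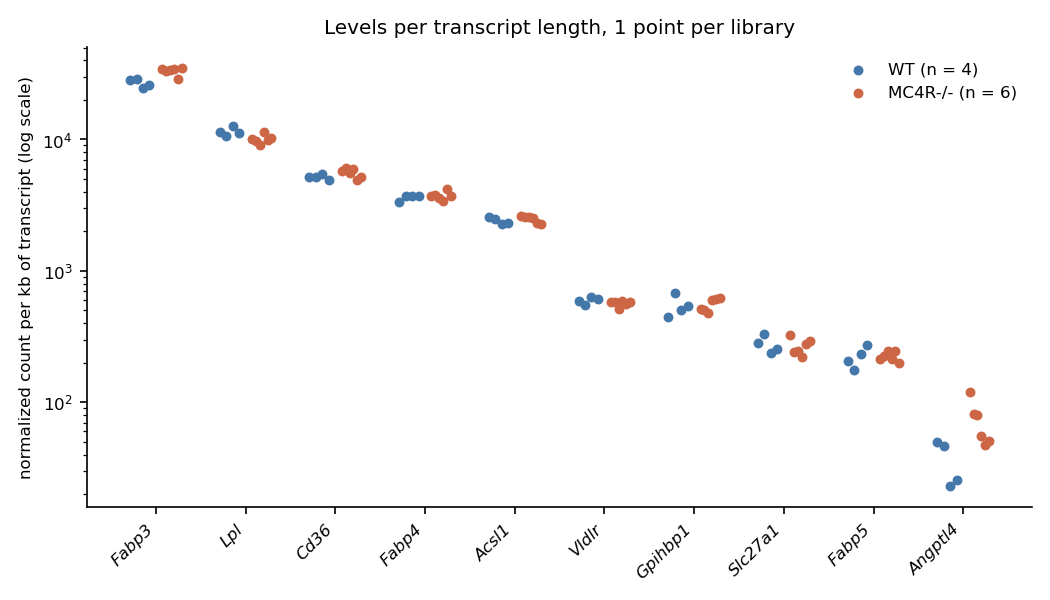
Normalized count per kb of transcript (log scale) of the 10 genes in order of their mean, 1 point per library, WT in blue and MC4R-/- in orange. The order runs from Fabp3 at 30718 to Angptl4 at 58.1 per kb, and the neighbours Vldlr and Gpihbp1, and Slc27a1 and Fabp5, overlap.

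Because Fabp3 and Lpl lay on opposite sides of 0, their ratio within a library differed more than either gene. This ratio was looked at after the values of both had been seen, as 1 of 6 ratios between members, and no test was made of it. Per kb, Fabp3 exceeded Lpl 2.49, 2.69, 1.96 and 2.29-fold in WT replicates 1 to 4 and 2.90 to 3.75-fold in MC4R-/-. The groups did not overlap, with means of 3.31 ± 0.32 (SD, n = 6) and 2.36 ± 0.31 (SD, n = 4). The ratio of Fabp3 to Fabp4 per kb was 8.97 ± 1.11 in MC4R-/- and 7.44 ± 0.79 in WT, with overlap. Lpl exceeded its anchor Gpihbp1 18.3 ± 1.40-fold per kb in MC4R-/- and 21.7 ± 4.57-fold in WT, again with overlap. Lpl exceeded its inhibitor Angptl4 from 83.7 to 210-fold per kb in MC4R-/- and from 228 to 548-fold in WT, without overlap.

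Some genes followed Fabp3 and Lpl closely from library to library. Among tested genes with a mean of at least 50 normalized counts, the 3 with the highest Pearson correlation of log2 values with Fabp3 over the 10 libraries were Scn4b (0.98), Cidea (0.98) and Stom (0.97). Scn4b encodes a sodium channel beta subunit, Cidea a lipid droplet protein and Stom the membrane protein stomatin. All 3 share the low value of MC4R-/- replicate 5 and the lowest value in WT replicate 3, and each was higher in MC4R-/- (log2 fold changes 0.85, 0.51 and 0.35). For Lpl they were Zbtb44 (0.96), Asb14 (0.96) and Nnt (0.94), all highest in WT replicate 3 as Lpl was. None of these 3 passed the test by genotype. The libraries share the genotype difference and their scaling, and the top 3 of many genes are high by selection, so the coefficients only describe the likeness.

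**Figure D4:**
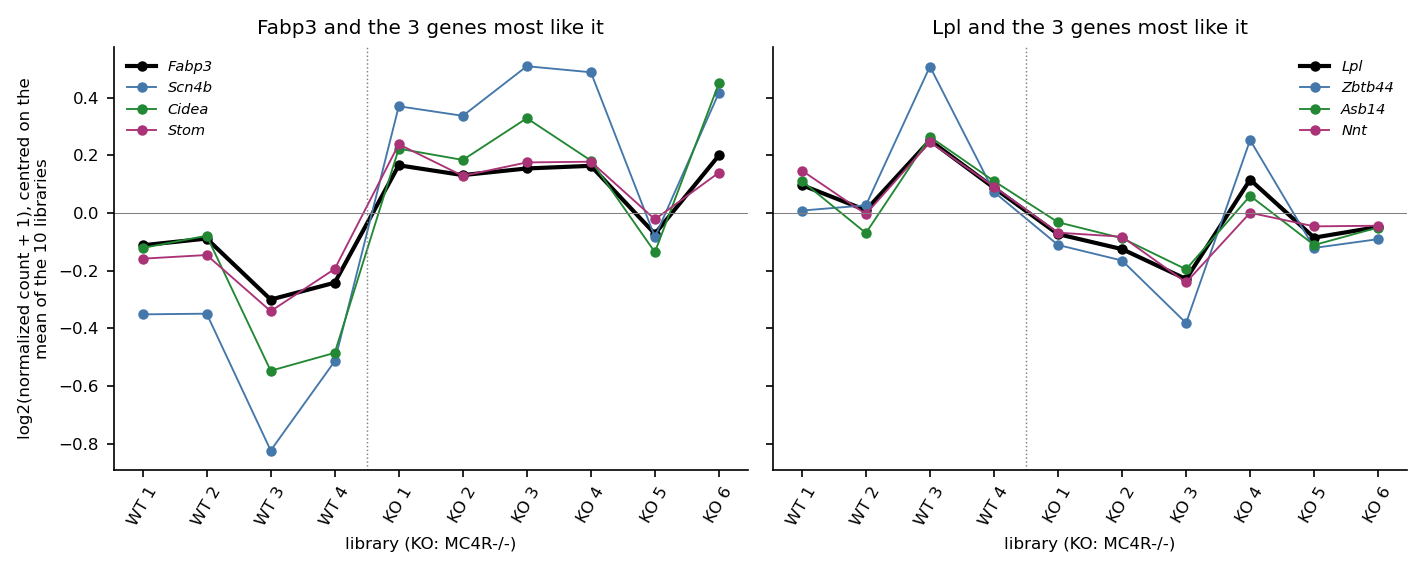
Log2(normalized count + 1) of Fabp3 (left) and Lpl (right) in black and of the 3 genes most like each, centred on the mean of the 10 libraries, with libraries on the x axis and WT left of the dotted line. Fabp3 and its 3 genes dip together in MC4R-/- replicate 5 and in WT replicate 3, where Lpl is highest.

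The list of PPAR receptors, which control several of the members, and their partners also held other regulators, among them Flt1, Nrp1, Vegfb, Notch1 and Hif1a. It had 1 called gene of 25 tested, and that gene was lower. Ppargc1a, the PPAR coactivator of mitochondrial genes, fell from 1094 ± 16.5 (SD, n = 4) in WT to 755 ± 67.9 (SD, n = 6) normalized counts, which is -0.54 ± 0.07 on the log2 scale (limma, adjusted p = 0.000316). Ppara, the receptor of heart muscle, had 760 ± 106 against 862 ± 30.6 (adjusted p = 0.486). Klf15, a transcription factor of fatty acid use in heart, had 325 ± 66.5 against 431 ± 62.5 (limma, adjusted p = 0.288, or 0.0391 without MC4R-/- replicate 6). The median of the list was -0.0049 on the log2 scale and 3 genes had an unadjusted p below 0.05, all lower in MC4R-/-. Tcf15, a transcription factor of capillary endothelium, had 77.6 ± 13.2 against 66.8 ± 16.7.

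Other PPAR targets of muscle had higher means in MC4R-/- for 21 of 23 tested genes, with a median log2 fold change of 0.10, where 48.4% of all tested genes had one above 0. At an unadjusted p below 0.05 there were 6, all higher, against 9.6% of all tested genes. Of the 23 genes 2 passed, both higher. Cidea had 224 ± 29.4 against 157 ± 26.3 (log2 fold change 0.51 ± 0.11, limma adjusted p = 0.0365). Plin2, the coat protein of lipid droplets in heart, had 530 ± 75.0 against 392 ± 45.2 (0.43 ± 0.10, adjusted p = 0.0481). Cidea lies 0.486 Mb from Mc4r on the same chromosome. DESeq2 called both and edgeR neither (adjusted p = 0.0719 and 0.0752). Both kept their limma call without MC4R-/- replicate 5 or WT replicate 1 or 2 and lost it without each of the other libraries (limma, adjusted p up to 0.183). Slc25a20, which carries acylcarnitine into mitochondria, had 1733 ± 141 against 1506 ± 136 (limma, adjusted p = 0.301).

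Triglyceride storage and release, where imported fatty acid goes if it is not burned, was covered by 22 genes, of which 18 were tested and 14 had higher means in MC4R-/-. The median log2 fold change was 0.14, and 8 genes had an unadjusted p below 0.05, 7 higher and 1 lower, against 9.6% of all tested genes. The 1 gene that passed was Mttp, the transfer protein that loads lipid onto lipoproteins, which rose from 78.8 ± 16.2 (SD, n = 4) to 122 ± 22.5 (SD, n = 6) normalized counts (0.63 ± 0.14, limma adjusted p = 0.0423). DESeq2 called it and edgeR did not (adjusted p = 0.0852). It kept its limma call without MC4R-/- replicate 5 or 6 or WT replicate 2 or 4 and lost it without each of the others (limma, adjusted p up to 0.146). The acyltransferase gene Gpat4 had 474 ± 16.9 against 387 ± 26.8 (limma, adjusted p = 0.0729, or 0.0378 without WT replicate 2) and the phosphatase gene Lpin1 2001 ± 95.2 against 1725 ± 92.9 (adjusted p = 0.172). The groups overlapped for neither, and DESeq2 called both (adjusted p = 0.013 and 0.0245). G0s2, an inhibitor of triglyceride lipase, had 212 ± 11.6 against 170 ± 27.7 (limma, adjusted p = 0.202, or 0.0399 without WT replicate 2). Without WT replicate 2 and MC4R-/- replicate 5 together, Lpin1 passed as well (limma, adjusted p = 0.036), as did Slc25a20 (0.0329) and Dbi (0.028).

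**Figure D5:**
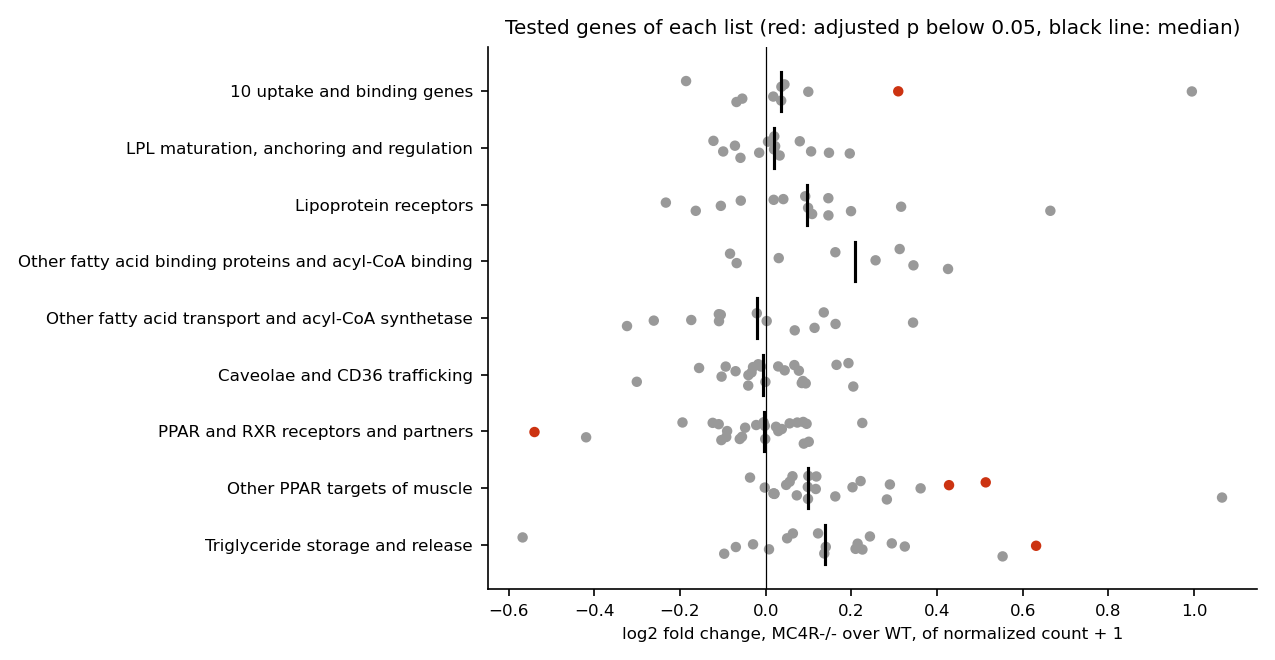
Log2 fold change, MC4R-/- over WT, of every tested gene of the 10 members and of 8 lists of the pathway, 1 point per gene, with the median as a black line and genes with an adjusted p below 0.05 in red. Red points are Fabp3, Ppargc1a (left of 0), Cidea, Plin2 and Mttp.

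In these bulk samples fewer cells of a type and less RNA per cell cannot be told apart, so the markers of cell types that express the members are given beside them. The 16 endothelial markers, a cell type that expresses Gpihbp1, Fabp4 and Cd36, held 0 called genes by limma, edgeR or DESeq2 and 0 at an unadjusted p below 0.05. Their summed level was 12257 to 13733 normalized counts in MC4R-/- and 12126 to 13441 in WT. The 11 adipocyte markers, whose cell type expresses Fabp4, summed to 462 to 595 normalized counts in MC4R-/- and 440 to 609 in WT. Most of that sum came from Lipe, with 3900 reads over all 10 libraries together, and Scd1, with 1327. Of the others, Car3 had 56 reads, Cfd 28, Adipoq and Lep 11 each, Cidec 10, Plin1 and Retn 9 each, Adrb3 1 and Ucp1 0. The part of adipocytes in the level of Fabp4 was not tested. The 12 cardiomyocyte markers, whose cell type expresses Fabp3 and Lpl, held 0 called genes by limma, edgeR or DESeq2 and 1 at an unadjusted p below 0.05. The means of 10 of 12 were lower in MC4R-/- (median -0.09 on the log2 scale), where 48.4% of all tested genes had a log2 fold change above 0.

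Of all tested genes, 48.4% had a log2 fold change above 0 and 9.6% an unadjusted p below 0.05. The threshold was passed by 0.459% with limma, 0.395% with edgeR and 0.831% with DESeq2. Of the fibroblast markers, all 10 tested had higher means in MC4R-/-, with 6 at an unadjusted p below 0.05 and 2 past the threshold. These 2 were Lum (0.56 ± 0.10) and Mfap5 (0.64 ± 0.14), with limma adjusted p = 0.0112 and 0.0481, and edgeR called Lum alone. Whether these 2 calls hold when a library is left out was not looked at. The sum of the fibroblast markers was 14471 to 16895 in MC4R-/- against 12947 to 15290 in WT. Of 13 macrophage markers, 11 had higher means and 0 passed by limma or edgeR, with 6 at an unadjusted p below 0.05 and 2 called by DESeq2. Their sum was 2817 to 3383 in MC4R-/- against 2444 to 2994 in WT. The smooth muscle and pericyte markers had 7 of 9 lower means and 0 called genes by limma, edgeR or DESeq2, with 2 at an unadjusted p below 0.05. The lymphocyte (11 tested), atrial (5 tested) and adipocyte lists (6 of 11 tested) held 0 called genes by limma, edgeR or DESeq2 and 0 at an unadjusted p below 0.05. The part of these cell types in the difference of Fabp3 was not tested. The atrial markers were highest in MC4R-/- replicate 5, with Myl4 at 905 normalized counts, and without that library the log2 fold change of Fabp3 was 0.35.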

How the data were processed

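Poly(A)-selected stranded libraries (KAPA) of 6 MC4R-/- and 4 WT left ventricles were analysed from 1 table of 24160 gene rows and 10 columns, all used. The deposited signal values are normalized counts: in each library at least 99.986% of values above 0, divided by the worth of 1 read, came within 0.1 of a whole number, so the authors divided read counts by a size factor and not by gene length. TopHat2 2.1.0, Cuffnorm 2.2.1.1 and Cufflinks 2.2.1 are among the tools listed, and mm10 is the build, per the submitters' processing notes. Roles, the annotation and the strand setting are not given in the sources used here, so overlapping and antisense genes may share reads. Accessions were matched to symbols in a RefSeq table of GRCm38.p6 (23984 rows matched) and to transcript lengths in GENCODE M21.

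Genotype was tested over all 10 libraries with limma 3.58.1 in R 4.3.3 (moderated by a robust mean-variance trend) on log2(normalized count + 1), for the 14611 genes with a mean of at least 1, two-sided, with Benjamini-Hochberg adjustment and a threshold of 0.05. Single members were also compared by an exact permutation test over all 210 assignments of 6 and 4 libraries, whose smallest two-sided p is 0.00952. Count models on the reads given back by the value of 1 read, edgeR 4.0.16 (quasi-likelihood, 58 genes called with default dispersion, set after a run with robust dispersion had called 61, which is kept as an added alternative) and DESeq2 1.42.0 (122 called), were alternatives, beside other pseudocounts, filters, scalings and weights, a replicate block and leaving out libraries. The members and the 8 pathway and 8 cell type lists were chosen with earlier results of these data known, so lists are given by counts and medians. Named are all members, up to 4 genes of each pathway list with the smallest p and every called one, and, of the cell type markers, the called ones and others picked after their values were seen, as were the ratios between members. Some genes that the rule names are not reported here. In simulated counts of this comparison over 14611 genes, with changed genes at a mean of at least 50, the procedure found 46% of 1.3-fold and 82% of 1.5-fold changes, and 12 of 175 calls were false. Fabp3, with a fold of 1.24, lies below these sizes. The shares are averages over genes of many levels and spreads, so they do not tell how often a change like that of Fabp3 is found.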

Additional observations from a re-analysis of the deposited data

Results flagged for a closer look

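Among 84 groups of libraries checked (42 genes in each genotype), 3 held a library far from the others by Dixon's ratio, and chance flags about 1 in 20 groups. Fabp3 in MC4R-/- replicate 5 was 23870 normalized counts, while the other 5 MC4R-/- libraries had 27491 to 28826. Fabp4 in WT replicate 1 was 2997, against 3310 to 3340 in the other WT libraries. Acss1 in WT replicate 2 was 3520, against 3338 to 3356 in the others.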

How the results depend on the processing

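Fabp3 kept its direction in all alternatives tried, with a log2 fold change of 0.27 to 0.35 when 1 library was left out and 0.28 to 0.38 otherwise. Of the 10 members, 1 passed in most settings and 0 without limma's trend and robust steps (Fabp3 adjusted p = 0.311). With the replicate block 2 passed, Angptl4 besides Fabp3 (log2 fold change 1.24, limma adjusted p = 0.00041). Replicates 5 and 6 exist in MC4R-/- alone, so under the block the genotype difference rests on replicates 1 to 4 of each group. It thus leaves out the lowest MC4R-/- values of Angptl4, 157 and 167 normalized counts. Leaving out 1 library gave 0 to 1 members, 0 without WT replicate 3 or 4. Over all genes 67 passed, 0 without trend and robust, 118 with library weights, 122 by DESeq2, 168 without WT replicate 2 and MC4R-/- replicate 5 together, 52 with the replicate block and 26 to 117 when 1 library was left out.

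Same-numbered libraries did not deviate together (correlations of -0.28 to -0.08 over genes), and the labels do not say that the replicate numbers pair animals. A pairing that touched few genes would not show in these correlations. The sign of members near 0 changed in a few settings, with no call: Gpihbp1 to -0.0393 with the replicate block, Fabp4 to -0.00029 with the replicate block, Slc27a1 to 0.0228 without WT replicate 2 and MC4R-/- replicate 5, and Fabp5 to -0.0531 with library weights and -0.11 without the same 2 libraries. When 1 library was left out, Gpihbp1 ran from -0.0495 to 0.151, Slc27a1 from -0.126 to 0.0396 and Fabp5 from -0.0853 to 0.121. The cause of these changes was not tested. edgeR called 61 genes with robust dispersion, which was run first, and 58 with the default, which was adopted after the data had been seen, and Fabp3 by both. Of the members and the named pathway genes, Cidea, Plin2 and Mttp lost their calls most often. The scalings moved the median over all genes by less than 0.1 on the log2 scale. Angptl4 had the lowest read count of the members, 55 in 1 library, and varied by 38.2% of its mean in MC4R-/- and 38.1% in WT.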
